A study of Mus musculus with 12 samples.

Results

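The antiviral effector genes Ifit1, Ifit2, Ifit3, Ifit3b, Mx1, Mx2, Rsad2, Bst2, Ifitm3 and Ifi44 were followed in cultured mouse oligodendrocyte precursor cells (OPCs). They were taken by name from a fixed list, which was written with earlier results of these data known. Each of the 10 matched 1 of the 55536 genes in the summed tables. The cultures were left untreated (Ctr), or were exposed for 48 h to dexamethasone, a synthetic glucocorticoid, at 1 µM (Dexa) or to the cytokine IFN-γ at 100 ng/ml (IFNg). Each group had 4 replicates from different litters, and replicate numbers tie an untreated, a Dexa and an IFNg culture of the same litter. OPCs are proliferating glial cells that later become the myelin-forming oligodendrocytes. They came from pooled brains of pups of both sexes aged P4 to P6. All groups shared the Sox10:Cre-RCE:LoxP(EGFP) background of the study's mouse line, in which Cre driven by Sox10 turns on EGFP across the oligodendrocyte lineage. Cells were sorted by GFP or taken on CD140a beads, and the labels do not say which route gave which culture. The labels also name EAE as the mouse model, while the methods describe no immunization of the pups used for culture.

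Interferons act through JAK kinases and STAT factors. Type I interferons act mainly through the interferon-stimulated response element (ISRE), which is read by a complex that holds STAT2 and IRF9, whereas IFN-γ acts mainly through the gamma-activated site (GAS) and raises IRF1, which also reads ISRE-like sequence. IFIT proteins bind foreign RNA, MX proteins are large GTPases that trap viral components, viperin (Rsad2) makes a chain-terminating nucleotide, tetherin (Bst2) holds budding virions at the membrane, IFITM3 hinders fusion in endosomes, and IFI44 is an interferon-induced cytoplasmic protein. These genes are best known as type I interferon targets, while guanylate-binding proteins, immunity-related GTPases and MHC genes are the classic targets of IFN-γ.

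The genes lie at 6 places in the genome (GENCODE M21 annotation, GRCm38). Ifit2, Ifit3, Ifit3b and Ifit1 follow each other on the plus strand of chromosome 19, from the start of Ifit2 at 34550694 to the end of Ifit1 at 34650009. Mx1 (97447035 to 97462907, minus strand) and Mx2 (97535308 to 97560900, plus strand) are neighbours on chromosome 16. Rsad2 lies on chromosome 12 (26442746 to 26456452), Bst2 on chromosome 8 (71534255 to 71537456), Ifitm3 on chromosome 7 (141009586 to 141010770) and Ifi44 on chromosome 3 (151730922 to 151749960), all on the minus strand. No other annotated gene overlaps any of the 10.

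Promoter sequence is shown because the genes were read out as targets of interferon signalling, and the windows let their starts be compared. RefSeq windows on GRCm38.p6, from 250 bases before to 50 bases after a transcription start, were found for 8 of the 10 genes, with a pair of starts for Ifit2. Each was searched on both strands for an ISRE core, GAAANNGAAA or TTTCNNTTTC, and for a GAS core, TTCNNNGAA, which reads the same on both strands. The ISRE core was present in 3.44% of all 32851 windows and the GAS core in 8.3%. Ifit1, Ifit3, Ifit3b, Bst2 and Ifitm3 held the ISRE core at 2 positions each and Rsad2 at 1, while Bst2, Ifitm3 and the upstream start of Ifit2 held a GAS core. The windows of Ifi44 and of the other Ifit2 start held neither set of letters. The stretches around the matches, with every base of a match in capitals, lie at chr19:34640760-34640843 (Ifit1), chr19:34583348-34583446 (Ifit3), chr19:34607744-34607842 (Ifit3b), chr12:26456533-26456597 (Rsad2), chr8:71537557-71537633 (Bst2), chr7:141010716-141010767 (Ifitm3) and chr19:34550444-34550492 (Ifit2), each printed 5′ to 3′ on the strand of its gene.
Ifit1: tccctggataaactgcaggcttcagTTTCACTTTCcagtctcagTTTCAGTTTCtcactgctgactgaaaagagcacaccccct
Ifit3: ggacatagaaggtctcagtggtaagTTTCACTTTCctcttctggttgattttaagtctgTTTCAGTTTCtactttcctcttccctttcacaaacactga
Ifit3b: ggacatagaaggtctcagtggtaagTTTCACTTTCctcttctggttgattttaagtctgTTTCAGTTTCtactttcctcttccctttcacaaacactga
Rsad2: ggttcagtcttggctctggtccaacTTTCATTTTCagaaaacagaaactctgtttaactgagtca
Bst2: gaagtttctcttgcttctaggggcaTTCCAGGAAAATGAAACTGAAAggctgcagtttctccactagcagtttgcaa
Ifitm3: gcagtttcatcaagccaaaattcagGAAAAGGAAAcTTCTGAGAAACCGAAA
Ifit2: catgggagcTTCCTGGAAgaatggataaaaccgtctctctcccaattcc
In Ifit1 the ISRE cores began 104 and 85 bases before the start. Those of Ifit3 began 156 and 122 bases before its start and those of Ifit3b 188 and 154 bases before, and the printed stretches of Ifit3 and Ifit3b were identical in 99 of 99 bases. The single core of Rsad2 began 120 bases before its start. In Bst2 a GAS core beginning 136 bases before the start ran into ISRE cores beginning at 130 and 124 bases before it, so the 3 matches overlap. The Ifitm3 matches lay just after the start, with ISRE cores beginning 2 and 19 bases downstream and a GAS core at 13 that overlaps the second. These are matches to letters and not measured binding sites.

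Sequencing depth was 19209059 to 52074655 reads assigned to genes in the 11 libraries whose tables were complete. The table of Dexa replicate 3 broke off after 33.7% of its transcripts, and this library entered no fit. Of the 10 genes it listed only Rsad2. Normalized counts are estimated read counts summed per gene and divided by DESeq2's size factor, and genes are compared with each other only in TPM, which corrects for transcript length. Calls are from DESeq2's Wald test with the litter as a block and Benjamini-Hochberg adjustment over the 17919 genes tested. OPC markers were present throughout, with a summed level over 8 genes of 844 to 1980 TPM in Ctr and 693 to 1540 TPM in IFNg libraries. With IFN-γ 5 of the 8 were called lower and 0 higher, while 2521 of all 17919 genes tested were called lower. Pdgfra was among the 5 (-0.61 on the log2 scale, SE 0.14). Olig1, the most abundant of the 8 in IFNg libraries at 337 TPM, was not called (-0.09, SE 0.11). Nor was Ptprz1 (0.21, SE 0.09). In bulk RNA, a change in the number of responding cells and a change in RNA per cell cannot be told apart.

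IFN-γ raised all 10 genes, by 2.07-fold for Mx2 and by 7.95-fold to 686-fold for the other 9. Their joint share of all reads was 0.00391% ± 0.000449 in untreated cultures (SD, n = 4), 0.00398% ± 0.00068 (n = 3) with dexamethasone and 0.0703% ± 0.00396 (n = 4) with IFN-γ. Higher expression in IFNg than in Ctr was called for 10 of 10 genes, against 15.2% of all genes tested. Of these, Ifit1, Ifit3b, Mx1 and Ifi44 reached 10 reads in no Ctr or Dexa library and passed the count filter only through their IFNg libraries, so they had to be higher there. The other 6 genes had readings in untreated cells. All 4 IFNg libraries lay above all 7 other libraries for 9 genes, Mx2 being the exception, and such a separation was seen in 7.21% of genes tested.

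**Figure D1:**
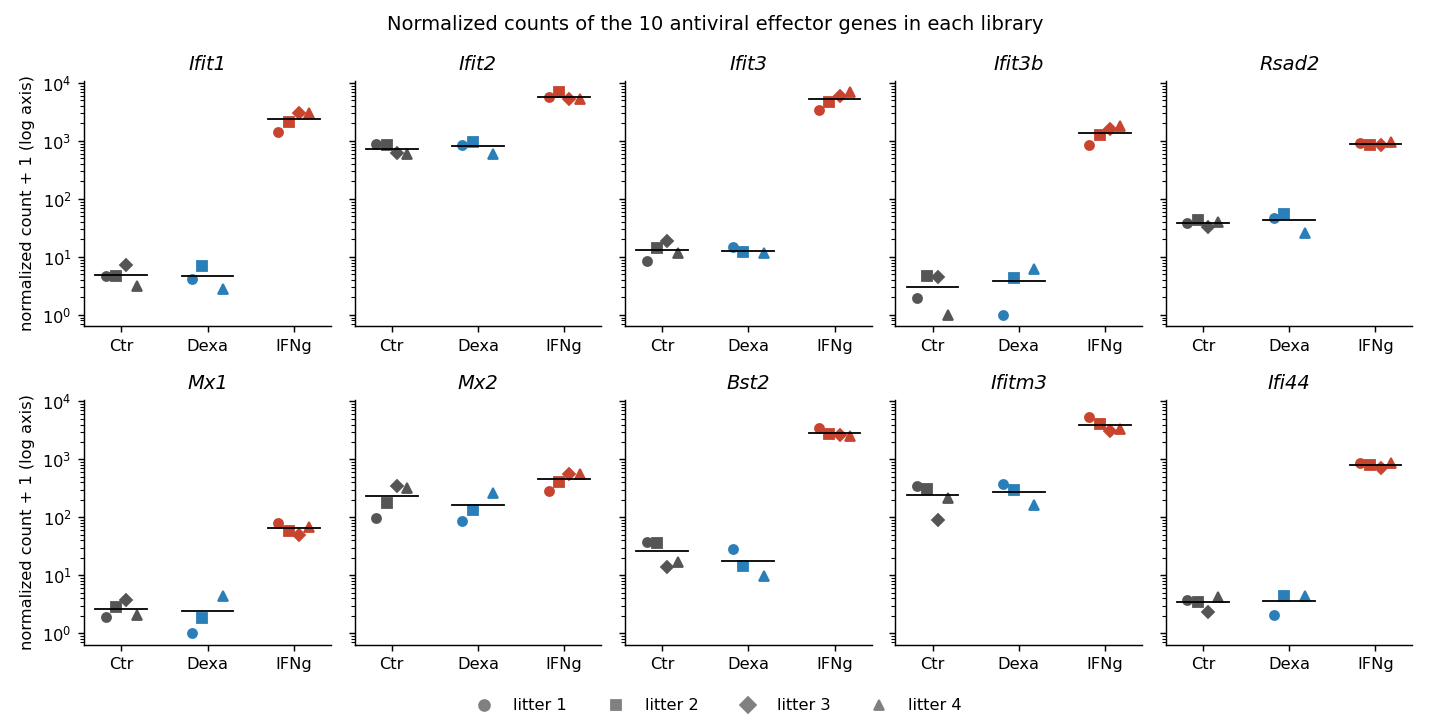
Normalized count plus 1 (log axis) of each gene in the 4 Ctr, 3 Dexa and 4 IFNg libraries, with a marker for each litter and a black line at the group mean. The IFNg libraries stand above the rest in every panel except that of Mx2, where the IFNg library of litter 1 (288.1) lies below the Ctr library of litter 3 (352).

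Among the IFIT genes, which bind viral RNA and block its translation, Ifit2 differed from its neighbours in its level before treatment. Its normalized counts were 868.3, 848.2, 610.3 and 603.8 in Ctr replicates 1 to 4, 851.6, 960.7 and 590.5 in Dexa replicates 1, 2 and 4, and 5621, 6890, 5246 and 5314 in IFNg replicates 1 to 4. Ctr and Dexa overlapped, and every IFNg library was higher than each of them. The log2 fold change of IFNg against Ctr was 2.99 (SE 0.09, DESeq2 adjusted p = 9.37e-221), with the smallest standard error of the 10 genes.

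Ifit1 was close to absent without IFN-γ. It held 3.672, 3.717, 6.199 and 2.172 normalized counts in Ctr replicates 1 to 4 and 3.238, 5.894 and 1.747 in Dexa replicates 1, 2 and 4, from 1 to 9 reads each. With IFN-γ the values were 1449, 2156, 3020 and 3041. Litter 1 gave the lowest IFNg value and litters 3 and 4 the highest. The log2 fold change was 9.24 (SE 0.52, DESeq2 adjusted p = 1.34e-67), with a 95% interval of 297-fold to 1230-fold that reflects the few reads in controls.

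Ifit3 had slightly more reads in untreated cells. Its normalized counts were 7.343, 13.01, 17.91 and 10.86 in Ctr, 14.03, 10.95 and 10.48 in Dexa, and 3432, 4737, 6042 and 6930 in IFNg replicates 1 to 4. The IFNg library of litter 1 was again the lowest, and the groups were far apart, with a log2 fold change of 8.72 (SE 0.31, DESeq2 adjusted p = 1.23e-172). Ifit3b, its near copy, went from 0.9179, 3.717, 3.444 and 0 in Ctr and 0, 3.368 and 5.242 in Dexa to 836.6, 1280, 1590 and 1804 in IFNg. Its log2 fold change of 9.42 had the widest error of the IFIT genes (SE 0.73, DESeq2 adjusted p = 4.69e-36).

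Reads of Ifit3 and Ifit3b can be exchanged in the counting. Their transcripts were 98% identical over 1697 aligned bases, and 61.8% of the 31-base words of Ifit3 also occur in Ifit3b. Counted as 1 gene, the pair gave a log2 fold change of 8.80 (SE 0.22). The split of reads between them is therefore uncertain, while their joint rise is not affected by it. Ifit1 shared 9.16% of its words with the paralog Ifit1bl2, and Ifit2 shared none with any other gene.

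Rsad2 encodes viperin, a radical SAM enzyme. Its counts varied least of the set among Ctr and among IFNg libraries, though not among Dexa libraries. They were 36.72, 41.51, 31.68 and 39.09 in Ctr, 45.33, 54.73 and 24.46 in Dexa replicates 1, 2 and 4, and 913.1, 855.2, 850.9 and 961.6 in IFNg. The incomplete table of Dexa replicate 3 listed 19 reads of Rsad2, or 38.31 normalized counts with a size factor over the genes it holds whole, which lies among the other Dexa values. The IFNg libraries differed among themselves by 5.87% (coefficient of variation, n = 4), and the log2 fold change was 4.60 (SE 0.18, DESeq2 adjusted p = 3.67e-140).

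The MX GTPases gave the weakest responses in level or in size. Mx1 had 1, 3, 4 and 1 reads in Ctr replicates 1 to 4, 0, 1 and 2 in Dexa replicates 1, 2 and 4, and 81, 61, 42 and 53 in IFNg replicates 1 to 4. Every IFNg library was above every other library, and the log2 fold change was 5.17 (SE 0.64, DESeq2 adjusted p = 1.37e-14). Transcripts annotated as subject to nonsense-mediated decay took 29.4% to 77.2% of the Mx1 reads in IFNg libraries and protein-coding transcripts 15.7% to 70.6%. These shares are estimates that split 42 to 81 reads over 10 annotated transcripts. The share of transcript Mx1-205 was 58%, 0.104%, 69.2% and 40.3% in IFNg replicates 1 to 4, so the split is uncertain. Over protein-coding transcripts alone, a value that rests on this split, the log2 fold change was 4.12 (SE 0.82). As background, Mx1 and Mx2 of most laboratory mouse strains carry mutations that prevent a full protein, and the annotation lists Mx2 as a polymorphic pseudogene.

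Mx2 was expressed before treatment and was the only gene whose IFNg libraries overlapped with those of another group. Its normalized counts were 98.22, 176, 352 and 318.2 in Ctr replicates 1 to 4, 84.19, 134.7 and 263.8 in Dexa replicates 1, 2 and 4, and 288.1, 408.7, 566.5 and 559.7 in IFNg replicates 1 to 4. Litter 1 was lowest in every group, and the IFNg value exceeded the Ctr value in 4 of 4 litters, with log2 ratios of 1.55, 1.21, 0.69 and 0.81 at a pseudocount of 0.5. The paired log2 fold change was 1.05 (SE 0.15, DESeq2 adjusted p = 1.26e-10). Without the litter block it was 0.95 with an adjusted p = 0.165 in DESeq2, so that 9 of 10 genes were called, and 0.95 with an adjusted p = 0.258 in edgeR. Between 92.2% and 95.4% of its IFNg reads fell on the transcripts annotated as polymorphic pseudogene.

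Bst2 and Ifitm3 act at membranes and were the most abundant of the set after IFN-γ. Bst2 went from 36.72, 35.31, 13.09 and 16.29 normalized counts in Ctr and 28.06, 13.47 and 8.736 in Dexa to 3498, 2788, 2632 and 2577 in IFNg. No IFNg value came near a control value, and the log2 fold change was 6.92 (SE 0.32, DESeq2 adjusted p = 1.07e-99). Ifitm3 stood at 353.4, 302.3, 88.17 and 216.1 in Ctr, at 370.2, 299.8 and 164.2 in Dexa, and at 5442, 4144, 3054 and 3292 in IFNg. Litter 3 was lowest and litter 1 highest both without and with IFN-γ, and the log2 fold change was 4.18 (SE 0.25, DESeq2 adjusted p = 1.74e-60). Of the 31-base words of Ifitm3, 20.5% recur in other genes, with Gm7676 holding the most.

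Ifi44 was nearly unread in controls, at 3, 4, 2 and 3 reads in Ctr replicates 1 to 4 and 1, 4 and 2 in Dexa replicates 1, 2 and 4. IFN-γ-treated cultures held 863.4, 787.2, 707.5 and 862.7 normalized counts, from 607 to 869 reads. These values were close together and far from the controls, with a log2 fold change of 8.39 (SE 0.45, DESeq2 adjusted p = 2.1e-74). A transcript with a retained intron took 14.1% to 15.6% of its reads in IFNg libraries.

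**Figure D2:**
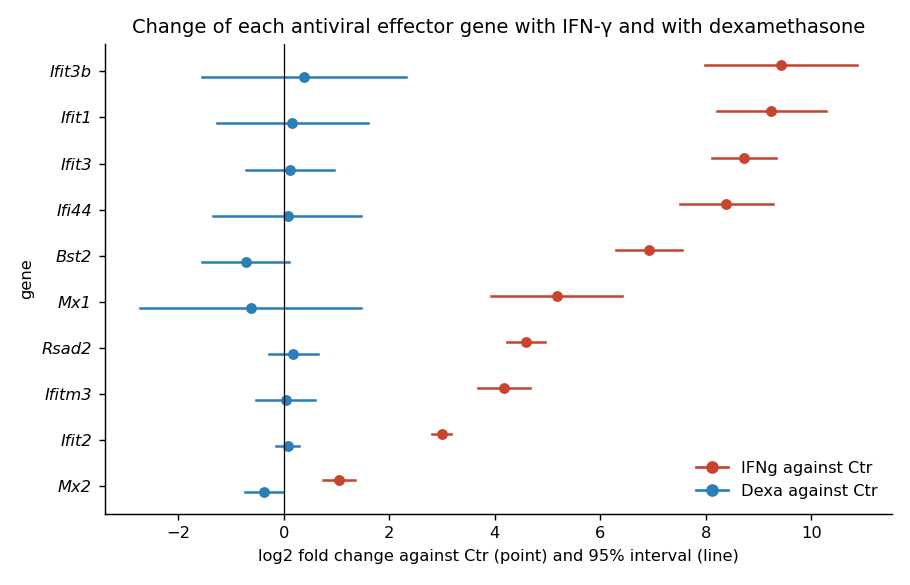
Log2 fold change of each gene against Ctr (points) with its 95% interval (lines) for IFNg in red and Dexa in blue, from the paired DESeq2 fit. The IFNg changes run from 1.05 for Mx2 to 9.42 for Ifit3b, and the Dexa points lie between -0.72 and 0.39.

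The order of the genes by length-scaled level differed from their order by fold change. In IFNg libraries, Ifitm3 averaged 177 ± 54 TPM (SD, n = 4), Bst2 102 ± 18.4 and Ifit3 71.2 ± 20.2. Next came Ifit2 at 33.9 ± 8.1, Ifit1 at 20.3 ± 5.92, Ifit3b at 15.9 ± 4.8 and Ifi44 at 7.82 ± 1.48. The lowest were Mx2 at 5.63 ± 1.82, Rsad2 at 5.21 ± 0.622 and Mx1 at 0.89 ± 0.309 TPM. The ranges of neighbours in this order did not touch between Ifit3 and Ifit2, between Ifit2 and Ifit1, between Ifit3b and Ifi44, and between Rsad2 and Mx1. All other neighbours overlapped, and Mx2 was above Rsad2 in only 2 of 4 libraries.

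Untreated cells gave another order. Ifitm3 (9.28 ± 4.31 TPM, SD, n = 4), Ifit2 (4.08 ± 0.803) and Mx2 (2.67 ± 1.48) led, Bst2 stood at 0.795 ± 0.385 and Rsad2 at 0.205 ± 0.0464, and the other 5 genes averaged 0.0152 to 0.15 TPM. The 3 genes with the highest level in Ctr were thus Ifitm3, Ifit2 and Mx2, and they were also the 3 with the smallest fold changes. The Ctr level is the base of the fold change, so these orders are not independent. Ifitm3 moved from rank 5998 to rank 355 of the 17919 tested genes by mean TPM, and Bst2 from 12696 to 594. Ifi44, at rank 17842 in Ctr, reached rank 7205. Mx1 stayed low, at rank 12816 in IFNg libraries.

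**Figure D3:**
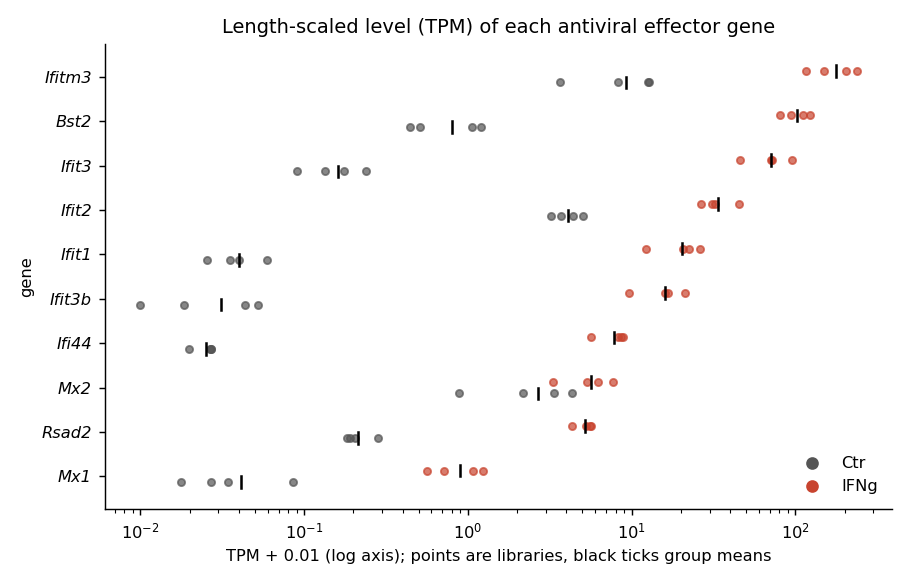
TPM plus 0.01 (log axis) of each gene in the 4 Ctr (grey) and 4 IFNg (red) libraries, with black ticks at the group means, ordered by mean TPM in IFNg libraries. Ifitm3 and Bst2 are highest with IFN-γ, and Mx1 is lowest at 0.557 to 1.22 TPM.

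Levels in the IFNg cultures differed between litters, and not in the same order for each gene. Relative to the mean of its 4 IFNg libraries, Ifit1 stood at 60%, 89.2%, 125% and 126% in litters 1 to 4. Ifit3 (64.9% in litter 1 and 131% in litter 4), Ifit3b (60.7% and 131%) and Mx2 (63.2% and 123%) were likewise lowest in litter 1, with litters 3 and 4 above the mean. Litter 1 was highest, and litters 3 and 4 were below the mean, for Ifitm3, at 137%, 104%, 76.7% and 82.6%, and for Bst2, at 122%, 97%, 91.6% and 89.7%. Rsad2 stayed within 95% to 107% and Ifi44 within 87.9% to 107%. These are levels with IFN-γ and not changes from the untreated culture of the same litter. Set against that culture, the order of litters was another for several genes. The log2 ratio of Mx2 was highest in litter 1, as given above, where its level was lowest. That of Ifitm3 was highest in litter 3 (5.11, against 3.94 in litter 1), and so was that of Bst2 (7.60, against 6.55). With 4 litters no relation between genes was tested. Sample titles of litters 3 and 4 share their opening digits, whose meaning the labels do not give.

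**Figure D4:**
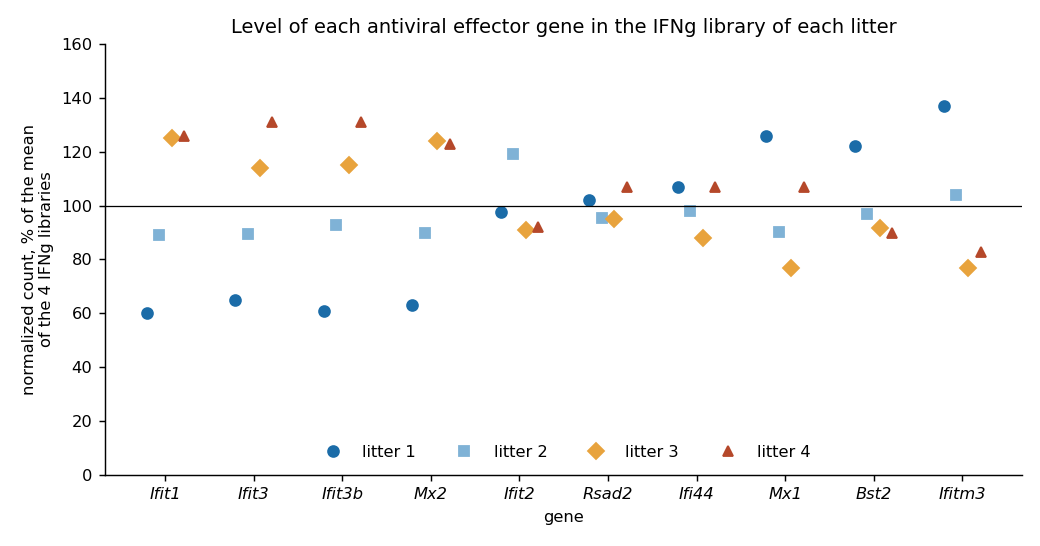
Normalized count of each gene in the IFNg library of each litter, as a percentage of the mean of the 4 IFNg libraries (line at 100%). Litter 1 is lowest for Ifit1, Ifit3, Ifit3b and Mx2 and highest for Mx1, Bst2, Ifitm3 and, by a narrow margin over litter 4, Ifi44.

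Changes with dexamethasone were small beside those with IFN-γ for the genes with readings in untreated cells. Between Dexa and Ctr 0 of 10 genes were called in either direction by DESeq2 as by edgeR, and with 2.57% of all genes called this count is near the background and says nothing particular of the set. Before adjustment Mx2 alone was past 0.05 (DESeq2 adjusted p = 0.516). Of all 17919 genes tested, 1524 were past it, so this count too says nothing particular of the set. The same fit called 7 of 8 glucocorticoid response genes higher in Dexa, among them Fkbp5, a chaperone that restrains the glucocorticoid receptor, with a log2 fold change of 1.41. Fkbp5 was not named by the rule given below. The genes which that rule gives for this list were Sgk1 (0.54), Tsc22d3 (0.81) and Nr3c1 (-0.18, not called). For Ifit2 the Dexa change was 0.07 on the log2 scale, with a 95% interval of -0.15 to 0.28. That of Rsad2 was 0.18 (-0.29 to 0.64) and that of Ifitm3 0.04 (-0.52 to 0.60). The interval of Mx2, around -0.37, ran from -0.73 to -0.01, and its value was lower in Dexa in 3 of 3 litters. Bst2 was also lower in 3 of 3 litters, at -0.72 (-1.55 to 0.10, DESeq2 adjusted p = 0.678). Ifit3, with 6 to 13 reads in Dexa libraries, changed by 0.12 (-0.72 to 0.95). Ifit1, Ifit3b, Mx1 and Ifi44 had 0 to 7 reads in Dexa libraries, where a fall or a modest rise was not detectable at this depth. The upper limits of their 95% intervals were 1.59, 2.32, 1.46 and 1.47 on the log2 scale.

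Set against Dexa in place of Ctr, IFN-γ gave the same picture, with 10 of 10 genes called higher against 16.2% of genes tested. Here too Ifit1, Ifit3b, Mx1 and Ifi44 passed the count filter only through their IFNg libraries and had to be higher there. The comparison shares its IFNg libraries with that against Ctr. Log2 fold changes ran from 1.42 for Mx2 (SE 0.18, DESeq2 adjusted p = 7.85e-14) through 2.92 for Ifit2 (SE 0.11) to 9.08 for Ifit1 (SE 0.65). For Mx2 this was lost in edgeR without the litter block (1.51, adjusted p = 0.098).

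Among all 2717 genes called higher with IFN-γ, whose median log2 fold change was 0.59, the antiviral effectors were mostly near the top. Ifit3b ranked 41, Ifit1 48, Ifit3 61, Ifi44 68 and Bst2 105. Mx1 ranked 168, Rsad2 191, Ifitm3 216 and Ifit2 292, while Mx2 ranked 830. Their median was 6.04, beside -0.01 over all genes tested, with 4 of the 10 included only through IFNg libraries. In TPM they made up 0.502% to 0.546% of the summed level of all genes called higher in the IFNg libraries.

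The GTPase families linked to IFN-γ had higher median fold changes and higher summed levels than the antiviral effectors. All 10 guanylate-binding proteins, GTPases of cell-autonomous defence, were called higher with a median log2 fold change of 9.90, and 9 of them had 10 reads in some control library. Gbp2 went from 0.763 to 985 ± 134 TPM (SD, n = 4) and Gbp6 from 0.598 to 579 ± 117. All 7 immunity-related GTPases were called higher with a median of 10.01, led in level by Igtp (843 ± 122 TPM) and Irgm1 (751 ± 145 TPM). Summed over their genes, guanylate-binding proteins held 2330 to 3290 TPM and immunity-related GTPases 2600 to 3670 TPM in IFNg libraries, against 351 to 492 TPM for the 10 antiviral effectors.

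The MHC genes followed. All 10 of the class I pathway rose with a median log2 fold change of 5.76, below the 6.04 of the antiviral effectors, including B2m, the light chain of class I (1220 ± 182 TPM in IFNg, SD, n = 4), and H2-K1 (1020 ± 96). All 7 of the class II pathway rose with a median of 9.14, including H2-Eb1 (277 ± 36.2 TPM) and H2-Ab1 (189 ± 37.2). These medians are set side by side as descriptions, and the differences between lists were not tested.

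Other antiviral families held lower summed levels in IFNg libraries, at 61.4 to 116 TPM for OAS and RNase L genes, 133 to 170 TPM for ISG15 conjugation and 77.5 to 111 TPM for nucleic acid sensors. Of 9 OAS and RNase L genes, which degrade viral RNA through oligoadenylates, 6 were tested and 6 were called higher, with a median of 8.05, though only 2 had 10 reads in any control library. Oasl2 reached 69 ± 18.2 TPM (SD, n = 4) and Oas1a 16.7 ± 3.7. Conjugation of the ubiquitin-like modifier ISG15 gave 5 of 5 called higher with a median of 6.18, Ube2l6 reaching 62 ± 8.3 TPM and Isg15 itself 38.7 ± 5.58. Of the nucleic acid sensors, 7 of 7 tested were called higher with a median of 3.57. Eif2ak2, which encodes the kinase PKR, had a log2 fold change of 3.43 (SE 0.27) and Ddx58, which encodes RIG-I, of 3.57 (SE 0.12).

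**Figure D5:**
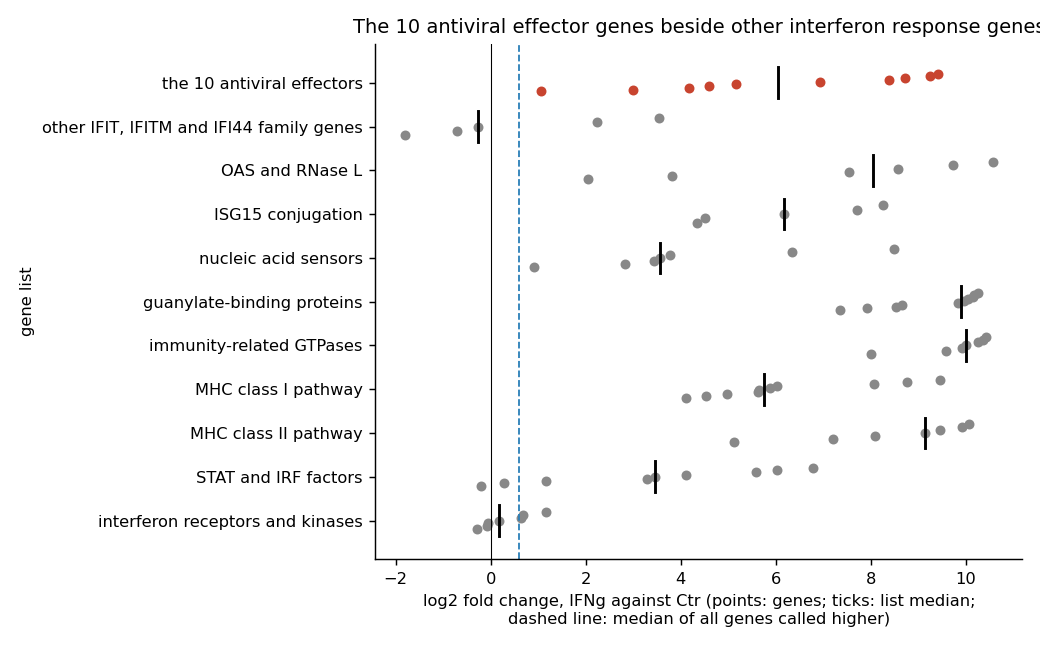
Log2 fold change of IFNg against Ctr for each tested gene (points), by gene list, with a black tick at the list median, a dashed line at 0.59, the median of all genes called higher, and a thin line at 0. The 10 antiviral effectors (red) spread from 1.05 to 9.42, while guanylate-binding proteins and immunity-related GTPases cluster near 10.

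Relatives of the listed genes did not all move. Of 9 other IFIT, IFITM and IFI44 family genes, 5 were tested, 2 were called higher and 1 lower, with a median of -0.26. Ifit1bl2, which shares sequence with Ifit1, had a log2 fold change of 3.55 (SE 0.48), reaching 0.335 ± 0.0696 TPM (SD, n = 4), and the other gene called higher was Ifit1bl1 (2.24, SE 0.54). Ifitm2, the most abundant of these relatives, stood at 9.64 TPM in Ctr and 9.95 TPM in IFNg with a log2 fold change of -0.26 (SE 0.16, DESeq2 adjusted p = 0.245). Ifitm10 was the gene called lower (-1.81, SE 0.34). Ifitm10 and Ifit1bl1 were named after their values were seen.

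The signalling genes above the set were measured in the same fit. Of the receptors and kinases, 3 of 7 were called higher and 1 lower, with a median of 0.17. Jak2 rose by 1.16 on the log2 scale (SE 0.08) and Jak1 by 0.64 (SE 0.07). Of 9 STAT and IRF factors, 7 were called higher with a median of 3.46. Irf1 rose by 6.02 (SE 0.08), to 276 ± 31.9 TPM (SD, n = 4). Stat2 (3.29, SE 0.09) and Irf9 (4.10, SE 0.12), which act together at the ISRE, were named for that role after their values were seen.

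Transcripts of the 10 interferon genes that were looked up were not found beyond single reads, and other interferon genes were not looked up. Over these 10 genes, of types I, II and III, the summed count was 0 to 2 reads in Ctr, 0 in Dexa and 0 to 1 in IFNg libraries, and Ifnb1 had 0 reads in all 11 libraries. A count of 0 allows up to 3 reads per library. RNA was collected at 48 h only, so earlier expression was not measured.

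Markers of other cell types were read in the same libraries. The 11 microglia and macrophage markers summed to 0.134 to 0.594 TPM in Ctr, 0.232 to 0.519 in Dexa and 0.329 to 1.07 in IFNg libraries. None of the 11 was at 0 reads in all IFNg libraries, while Cx3cr1 reached at most 3 reads and Aif1 at most 3. The 2 that could be tested, P2ry12 and Csf1r, had log2 fold changes of 0.38 (SE 0.40) and 0.24 (SE 0.61). Endothelial markers summed to 0.446 to 0.63 TPM in IFNg against 0.558 to 0.727 in Ctr, with 0 of the 4 tested called higher and 1 lower. Pericyte and leptomeningeal markers went from 0.0545 to 0.943 TPM in Ctr to 0.282 to 1.73 TPM in IFNg. Of the 5 of them tested, 1 was called higher and 0 lower, with a median log2 fold change of -0.16. The gene called was Lum, higher by 4.18 on the log2 scale (SE 0.46). Astrocyte markers went from 75.5 to 196 TPM in Ctr to 188 to 297 TPM in IFNg, with 3 of 6 called higher and 2 lower, and with Gfap higher by 4.10 on the log2 scale (SE 0.34). Neuron markers summed to 3.38 to 5.43 TPM in Ctr and 4.05 to 6.75 TPM in IFNg. Of the 4 of them tested, 1 was called higher and 2 lower, with a median log2 fold change of -0.41. Mature oligodendrocyte markers summed to 8.45 to 38.6 TPM in Ctr and 6.49 to 48.7 TPM in IFNg, with 0 of 5 called in either direction. The part of these cell types in the rise of the antiviral genes was not tested.

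Genes outside the lists whose profile over the 11 libraries was most like the median of the set were named by a distance rule. The distance was the root mean square of the differences in log2(normalized count + 1), centred on the Ctr mean. The closest were Tnfrsf14, Gm17334 and Slfn2 (0.36 each), Dtx3l (0.38) and Gm5431 (0.39). Dtx3l, an E3 ubiquitin ligase, went from 153 ± 30.7 to 10734 ± 2154 normalized counts (SD, n = 4). Gm17334 went from 7.51 ± 2.4 to 546 ± 36.1 and Slfn2, a schlafen family gene, from 0.327 ± 0.379 to 64.7 ± 19.3. Tnfrsf14 and Gm5431 were at 0 in every Ctr library and reached 73 ± 12.4 and 53.6 ± 9.02, with log2 fold changes of 8.93 (SE 3.53) and 8.48 (SE 1.11). For these 2 genes and Slfn2, near 0 in Ctr, the distance depends on the 1 added to the counts. Of the 10 antiviral genes, Rsad2 (0.78) and Bst2 (0.90) were nearest to their own median and Mx2 (2.95) was farthest.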

How the data were processed

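Total RNA of cultured OPCs was sequenced in 12 libraries of 3 groups. Per the study's methods and the labels the authors trimmed reads, aligned with STAR and quantified transcripts with Salmon 0.8.2 on mm10 (GRCm38). The deposited tables give estimated counts per transcript and TPM values, which the authors did not normalize between libraries. Transcript identifiers matched GENCODE M21 with 0 left over, although the methods name an older Ensembl annotation. Estimated counts were summed per gene and rounded. The 3 deposited tables of the authors' own comparisons, which hold fold changes and p-values, were not used, and 0 further columns were left aside.

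Genes that reached 10 counts in 4 or more of the 11 complete libraries were tested with DESeq2 1.42.0 (R 4.3.3), which the study's methods also name, with litter as a block plus group and all groups in 1 fit. A gene was called at an adjusted p under 0.05. Alternatives were no block, edgeR 4.0.16 quasi-likelihood with TMM, TMM size factors, other filters, only the groups compared, each library left out, protein-coding transcripts only, and Ifit3 with Ifit3b summed. The script was tested on simulated data. Intervals are 1.96 standard errors and cover counting error and replicate spread only.

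The labels give replicates as different litters. Deviations from the group means correlated at 0.404 to 0.722 between libraries of the same number (10 pairs) and at -0.614 to 0.495 otherwise (30 pairs). The ranges overlap, so the correlations alone do not settle the pairing, which is taken from the labels and replicate numbers. No replicates agreed within sampling noise (chi-square over its degrees of freedom, 23.5 to 224).

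The genes and the lists were chosen with earlier results of these data known. Beside the 10 genes, the rule names from each list at most the 2 genes with the highest mean TPM in IFNg libraries and the 1 with the largest log2 fold change. It also names the 5 genes outside the lists with the closest profile. Fkbp5, Stat2, Irf9, Ifitm10, Ifit1bl1, Cx3cr1, Aif1 and Ifnb1 were named outside this rule. Of the listed genes, Mb21d1 matched no symbol, and 1 that this rule names is not reported here. Promoter windows of Mx1 and Mx2 were not used here.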

Additional observations from a re-analysis of the deposited data

How the results depend on the processing

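Of the 678 recomputed values, 660 stayed on the same side of the threshold or close to the reported count. Changes called in neither fit counted among these even where their sign flipped. For Dexa against Ctr, Ifi44 was at 0.0657 on the log2 scale in the main fit and at -0.3629 without Dexa replicate 2. Without the replicate block, Mx2 lost its call against Ctr in DESeq2 and edgeR and its call against Dexa in edgeR, as given above; the block changed no other call on the 10 genes. Counts over all genes depended more on the fit. Without the replicate block, 2302 genes (DESeq2) and 1513 (edgeR) were called for IFNg against Ctr in place of 5238, 2345 and 1571 for IFNg against Dexa in place of 5661, and 98 and 22 for Dexa against Ctr in place of 460. edgeR with the block called 282 for Dexa against Ctr. With only the compared groups in the fit, 1026 genes were called for Dexa against Ctr and 3563 for IFNg against Dexa. Leaving out 1 library gave 190 to 542 calls for Dexa against Ctr, namely 299 without Ctr replicate 1, 267 without Ctr replicate 2, 277 without Ctr replicate 4, 225 without Dexa replicate 1 and 190 without Dexa replicate 2. It gave 3724 to 5300 for IFNg against Dexa, the lowest without Dexa replicate 2, and 10 of 10 antiviral genes called higher each time. No antiviral gene was called for Dexa against Ctr under any of the 18 alternatives. Mx2 gave no value over protein-coding transcripts alone. Genes with under 10 reads in controls have fold changes limited by counting error.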
